A study of Mus musculus with 7 samples.

Results

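The genes that load peptides onto MHC class I were followed in cancer-associated fibroblasts (CAFs). The set was defined by name and held 10 genes: H2-K1, H2-D1, B2m, Tap1, Tap2, Tapbp, Psmb8, Psmb9, Psmb10 and Nlrc5. All 10 were present among the 12771 genes of the count table. Tumors were grown in the pancreas of male C57BL/6 J mice, injected at 8 weeks of age with 20000 KPC cells, a mouse pancreatic cancer line. The KPC cells had received either a lentiviral hairpin against Brca2 (shBrca2, 4 libraries, replicates 1 to 4) or a non-targeting hairpin (shControl, 3 libraries, replicates 1, 2 and 4), so only the cancer cells were manipulated, both groups carried a vector, and the CAFs belonged to an unmodified host. The knockdown itself can therefore not be checked in these libraries, each of which came from a separate mouse. At 2 to 3 weeks the tumors were digested, leukocytes and epithelial cells were removed on beads, and about 10000 live CD45-/CD31-/EpCAM-/PDPN+ cells per mouse were sorted for RNA-seq of transcript 3' ends.

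MHC class I molecules display short peptides from inside the cell to CD8+ T-cells. A heavy chain (H2-K or H2-D in these mice) pairs with β2-microglobulin, the product of B2m, and receives its peptide in the endoplasmic reticulum from a transporter made of Tap1 and Tap2, with tapasin (Tapbp) as the bridge. Interferon exchanges the catalytic subunits of the proteasome for Psmb8, Psmb9 and Psmb10, which changes how peptides are cut, and Nlrc5 is the transactivator of class I promoters. Nearly all nucleated cells carry class I, and fibroblasts raise it when interferon reaches them.

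Of the genes, 7 lie in the MHC on chromosome 17 (GRCm38.p6), and the remaining members are B2m on chromosome 2 and Psmb10 and Nlrc5 on chromosome 8. H2-K1 spans 33996012 to 34000619 and H2-D1 35263094 to 35267497. Psmb9, Tap1, Psmb8 and Tap2 follow each other within 34292 bases, from 34182030 to 34216321. Tapbp, on the other side of H2-K1, spans 33919478 to 33929290. B2m spans 122147687 to 122153082 on chromosome 2, Psmb10 105935728 to 105938392 and Nlrc5 94434335 to 94527272 on chromosome 8. RefSeq promoter windows of 300 bases (250 before and 50 from the transcription start onward) were on hand for 8 of the 10 members, and not for Tap2 and Nlrc5.

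These windows were searched on both strands for 5 short motifs. The sequences are shown because H2-K1, H2-D1 and B2m share a layout that few promoters hold. Whether this layout goes with the differences described below was not tested. The bases below are written 5′ to 3′ along the gene's strand, with capitals for motif matches. H2-K1 is shown for chr17:34000349-34000467 (minus strand), H2-D1 for chr17:35262914-35263055 (plus strand) and B2m for chr2:122147538-122147648 (plus strand). Tap1 is shown for chr17:34187331-34187555 (plus strand), the whole stretch between its start and that of Psmb9, which runs the other way.

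H2-K1: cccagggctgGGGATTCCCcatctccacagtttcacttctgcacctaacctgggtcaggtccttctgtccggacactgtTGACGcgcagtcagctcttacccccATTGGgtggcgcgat
H2-D1: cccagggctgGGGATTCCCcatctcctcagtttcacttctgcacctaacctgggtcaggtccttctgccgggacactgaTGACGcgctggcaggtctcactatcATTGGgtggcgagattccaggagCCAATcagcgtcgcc
B2m: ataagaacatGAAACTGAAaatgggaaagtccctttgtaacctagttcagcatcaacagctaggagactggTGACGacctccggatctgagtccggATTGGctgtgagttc
Tap1: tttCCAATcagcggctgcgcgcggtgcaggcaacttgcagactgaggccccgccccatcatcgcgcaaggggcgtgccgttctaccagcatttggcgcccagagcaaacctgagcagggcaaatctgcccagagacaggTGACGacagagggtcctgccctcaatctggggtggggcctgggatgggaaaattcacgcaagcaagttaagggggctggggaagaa

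In H2-K1, H2-D1 and B2m the letters TGACG, the core of the X2 box of class I promoters, were followed 25 bases later by ATTGG, the reverse complement of the CCAAT core bound by NF-Y. This spacing was noticed in the members and then counted: 31 of 32851 promoter windows (0.0944%), theirs included, held it. TGACG alone was in 20.8% of windows and CCAAT in 37.4%. H2-K1 and H2-D1 also held GGGATTCCC, a κB element found in 0.353% of windows. As duplicated genes with similar promoters, they are not separate observations. Another CCAAT match of H2-K1, 8 to 12 bases after the start used here, lies outside the stretch shown. GAAANNGAA, 1 form of the core of an interferon-stimulated response element, was matched in B2m among the members and in 8.56% of windows. The printed H2-K1 and H2-D1 sequences both hold tttcacttc after the κB element. Read on the other strand, it has GAA before GAAA, an order that these letters cannot match and that was not searched. The lack of a match in the other members therefore does not show that they lack such an element. TTCNNNGAA, the core of a gamma-interferon activated site, was matched in Psmb8 and in 8.3% of windows. The Tap1 and Psmb9 windows overlapped by 275 bases and share their TGACG and CCAAT matches. A match is only a run of letters, and binding was not measured.

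Heavy chain genes are similar in sequence, so the transcript ends that carry the counts were compared with all other transcripts (GENCODE vM39). Of the 451 overlapping 50-base words in the last 500 bases of H2-K1, 2 occurred in another gene, H2-D1. For H2-D1, 41 words (9.09%) occurred in other genes, spread over 218 of them. No word of the other 8 members was shared. How reads with several matches were counted is not given in the sources used here, so part of the H2-D1 count could be shared with other genes.

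The libraries held 1898679 to 5990579 counts, with shBrca2 replicate 3 the shallowest. All 10 fibroblast markers were in the table, among them Col3a1 (34894 to 63792 normalized counts) and Col1a2 (34662 to 46334). Of these 10, 2 were called lower and 0 higher by the rule given below. They were Dcn (-0.77 on the log2 scale, DESeq2 adjusted p = 0.069) and Lum (-1.18, 0.015). A negative fold change was seen in 8 of the 10, with a median of -0.09. Some markers of other cells also differed between the groups. Normalized counts summed over 12 leukocyte and myeloid markers were 390 to 460 in shControl and 642 to 680 in shBrca2, with Csf1r at 86.6 to 149 and 226 to 276. Much of the shBrca2 sums was Csf1r and Cd14, the latter at 29.9 to 130 in shControl and 146 to 211 in shBrca2. Of these 12, 4 were called higher (Csf1r, Cd14, Fcgr3 and C1qa) and 0 lower by the rule given below, while 5 had a negative fold change (such as Cd68, -0.32 on the log2 scale). Over 7 epithelial markers the sums were 438 to 1179 and 1578 to 2093 (among them Krt18 and Krt19), with 5 called higher and 0 lower. Over 7 pericyte markers they were 532 to 969 and 1055 to 1260, with 2 called higher and 0 lower. Much of this sum was Ndufa4l2, at 164 to 526 and 584 to 859. A negative fold change was seen in 2 of the 7 (such as Kcnj8, -0.13 on the log2 scale). Over 9 mesothelial markers (among them Wt1 and Msln) the sums overlapped, at 1129 to 3012 and 2280 to 2786, and 0 were called. Their median log2 fold change was 0.70, and 2 of the 9 had a negative one (such as Upk3b, -0.40). Without shControl replicate 4, Msln, Upk1b, Cav1, Bnc1 and Gpm6a were called higher. The 8 endothelial markers summed to 1228 to 1801 in shControl and 690 to 824 in shBrca2. Eng made up most of each sum and was called lower (972 to 1613 and 401 to 602). Flt1 was called higher (1.23 on the log2 scale), and 4 of the 8 had a positive fold change (such as Kdr, 0.51). The 4 lymphocyte markers summed to 27.8 to 94.4 and 0 to 16.3, where Jchain was at 0 in shBrca2 replicate 3 and Mzb1 in replicates 3 and 4. Jchain and Mzb1 made up most of the shControl sums and were the 2 called lower, with 0 called higher. A negative fold change was seen in 3 of the 4, and not in Gzma (0.13 on the log2 scale). The T-cell genes Cd3e, Cd4 and Cd8a had no row. The sums cover only markers in the count table, 12 of 18 listed leukocyte and myeloid genes and 4 of 19 lymphocyte genes. Ptprc, which encodes CD45, and Epcam were looked up and had no row there. The part of these cells in the results below was not tested. A change in cell number cannot be told apart from one in RNA per cell, or from expression of these genes by the fibroblasts.

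To ask whether the class I pathway differed between CAFs of the 2 tumor types, DESeq2 was run over all genes. Calls required an adjusted p under 0.1 together with a mean normalized count over 5 and a log2 fold change beyond 0.5 in either direction. Transcripts of both heavy chains, of β2-microglobulin and of Tap2 were lower in shBrca2 CAFs, at 50.3% to 63.4% of the shControl level. These 4 of 10 members were called lower and 0 higher, where 9.04% of all genes were called, 5.27% lower and 3.77% higher. The same 4 were the members with an adjusted p under 0.1, reached with a lower level by 5.7% of genes. The fold changes of all 10 were negative, with a median log2 value of -0.63, against 49.2% of genes with a negative sign and a median of 0.01. These 10 values are not independent, because the same libraries were high or low for each gene. 7 members had an unadjusted p under 0.05, a level reached in this direction by 9.68% of genes.

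**Figure D1:**
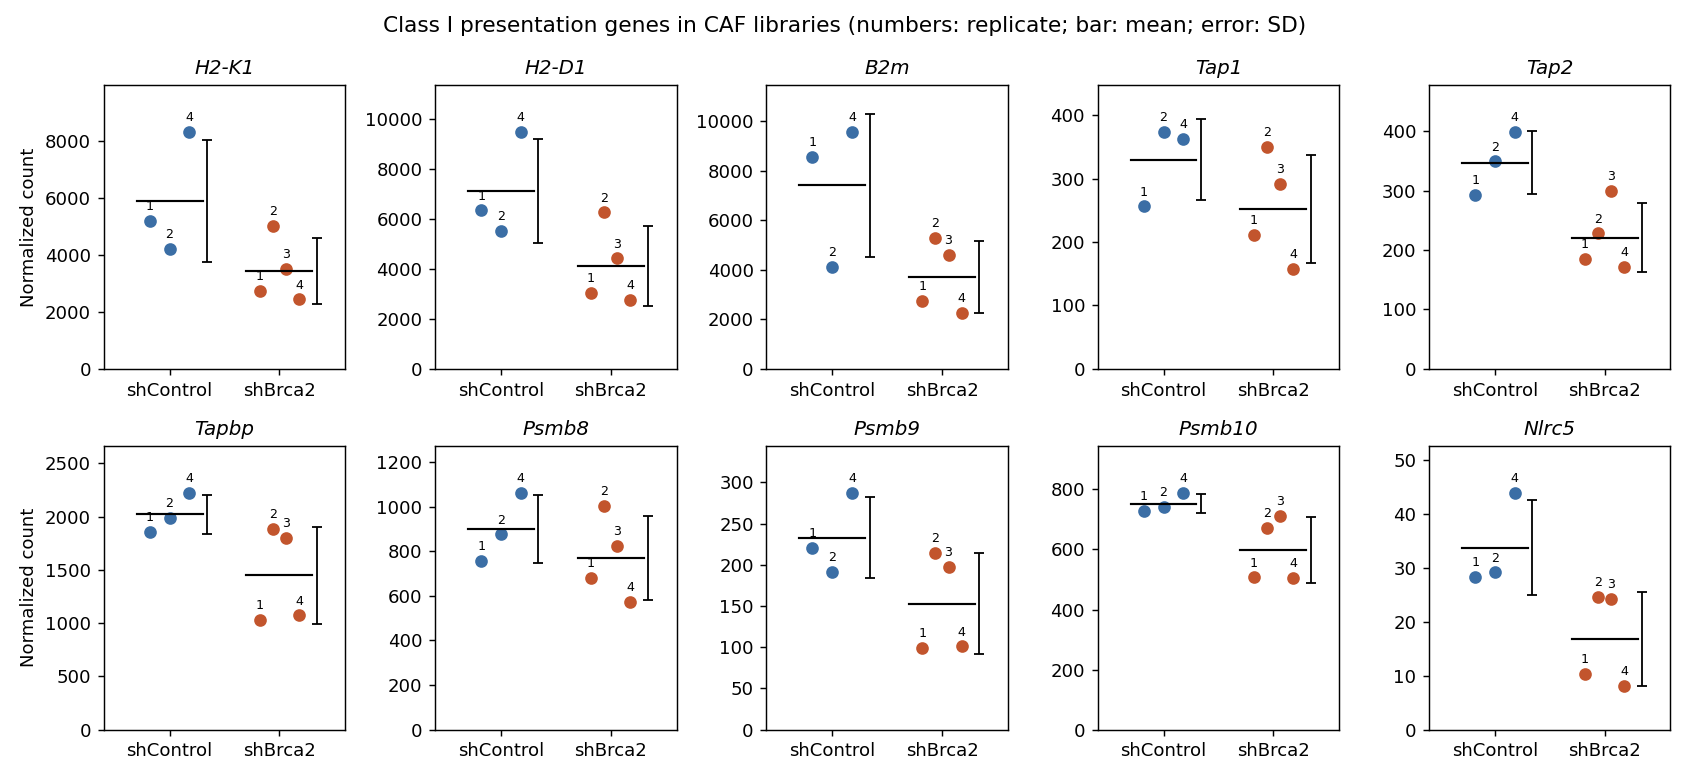
Normalized counts (y axis, from 0) of the 10 genes in each CAF library, by group; numbers mark replicates, horizontal bars the mean and error bars the SD (n = 3 shControl, n = 4 shBrca2). In every panel shBrca2 replicates 1 and 4 lie under the other 5 libraries, and shControl replicate 4 is the highest in 9 of 10 panels.

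H2-K1 encodes the K heavy chain. Replicates 1, 2 and 4 of shControl held 5193, 4215 and 8321 normalized counts of it, while the shBrca2 libraries, in the order of their numbers here and throughout, held 2747, 5027, 3516 and 2441. The groups overlapped, since shBrca2 replicate 2 lay above shControl replicate 2, and shControl replicate 4 stood well above all other libraries. The shControl mean was 5910 ± 2145 (SD, n = 3) and the shBrca2 mean 3433 ± 1155 (SD, n = 4), or 58.1% of it (log2 fold change -0.78, SE 0.29, DESeq2 adjusted p = 0.073).

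H2-D1, the D heavy chain, followed the same order. The shControl libraries held 6341, 5536 and 9468 normalized counts and the shBrca2 libraries 3035, 6263, 4421 and 2771. Again shBrca2 replicate 2 fell among the controls, near shControl replicate 1. Its shBrca2 mean was 57.9% of the shControl mean (log2 fold change -0.79, SE 0.29, DESeq2 adjusted p = 0.077).

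B2m, the light chain shared by all class I molecules, showed the largest decrease among the called members. The shControl libraries held 8555, 4110 and 9544 normalized counts and the shBrca2 libraries 2739, 5294, 4585 and 2271. Replicate 2 was far from the other controls and lay under shBrca2 replicates 2 and 3. The mean went from 7403 ± 2894 (SD, n = 3) to 3722 ± 1448 (SD, n = 4), or 50.3% (log2 fold change -0.99, SE 0.33, DESeq2 adjusted p = 0.041).

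The peptide transporter came next. Tap2 had 293, 349 and 398 normalized counts in shControl and 185, 228, 299 and 172 in shBrca2. Only shBrca2 replicate 3 reached the control range. The shBrca2 mean was 63.4% of the shControl mean (log2 fold change -0.66, SE 0.23, DESeq2 adjusted p = 0.05). edgeR called Tap2 (adjusted p = 0.073) but not H2-K1 (0.12), H2-D1 (0.13) or B2m (0.1), so 1 of 10 members was called lower by that tool, beside 5.13% of all genes. Its partner Tap1 did not pass. Tap1 had 256, 373 and 362 normalized counts in shControl and 211, 350, 292 and 157 in shBrca2, so the groups overlapped broadly. Its log2 fold change was -0.39, with a 95% interval from -0.93 to 0.15 (DESeq2 adjusted p = 0.52). Tapbp, which holds the empty class I molecule at the transporter, had 1859, 1989 and 2222 normalized counts in shControl and 1030, 1887, 1801 and 1073 in shBrca2. The controls were close together, and shBrca2 was split into a pair near the controls and a pair far under them. The log2 fold change was -0.48, with an interval from -0.96 to -0.01 (DESeq2 adjusted p = 0.27).

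**Figure D2:**
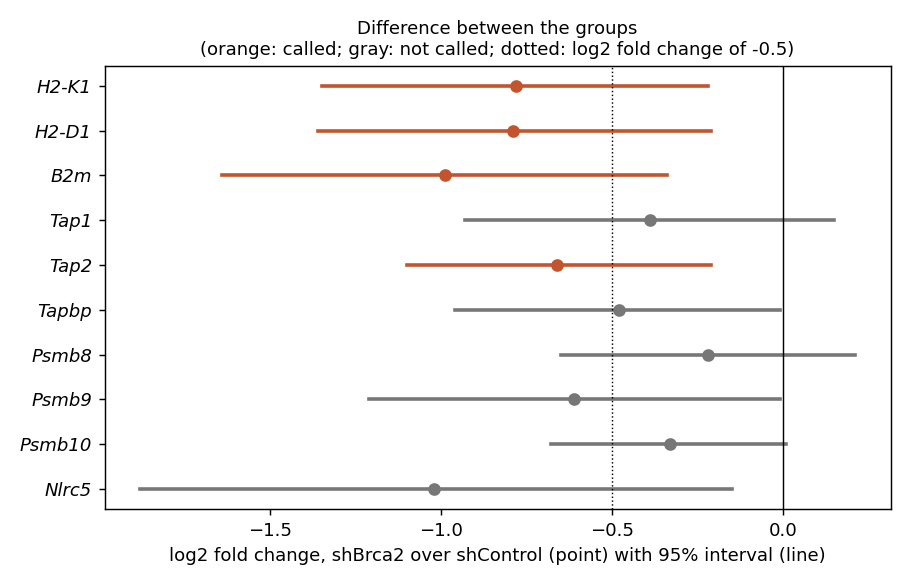
Log2 fold change of shBrca2 over shControl (x axis) for each gene, with lines for the 95% interval from the DESeq2 standard error; called genes are in orange. All points lie left of 0, and the intervals of Tap1, Psmb8 and Psmb10 include 0.

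None of the inducible proteasome subunits was called. Psmb8 had 758, 875 and 1061 normalized counts in shControl and 682, 1004, 824 and 571 in shBrca2. Its log2 fold change was -0.22, the least of the 10, with an interval from -0.65 to 0.21 (DESeq2 adjusted p = 0.69). Psmb9 had 220, 191 and 287 normalized counts in shControl and 99, 214, 197 and 101 in shBrca2, a log2 fold change of -0.61 with an interval from -1.21 to -0.01 (DESeq2 adjusted p = 0.27). For both genes shBrca2 replicates 2 and 3 were within or near the control range. Psmb10 had 729, 743 and 788 normalized counts in shControl and 507, 671, 712 and 504 in shBrca2. The groups did not overlap, although the highest shBrca2 library came within a few percent of the lowest control. Its log2 fold change was -0.33, with an interval from -0.68 to 0.01 (DESeq2 adjusted p = 0.31).

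Nlrc5 was measured at low counts, between 8 and 45 reads per library. Its normalized counts were 28.2, 29.1 and 43.8 in shControl and 10.3, 24.5, 24.2 and 8.13 in shBrca2. All shBrca2 libraries lay under all controls. The log2 fold change of -1.02 had a standard error of 0.44, and the gene did not pass (DESeq2 adjusted p = 0.16). Psmb10 and Nlrc5 were the 2 members with no overlap between the groups, which is 20% of the 10, beside 9.29% of all genes in this direction.

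The inducible subunits were next set against the constitutive ones they replace, Psmb5, Psmb6 and Psmb7. The constitutive genes were not called (log2 fold changes -0.06, 0.12 and 0.38, DESeq2 adjusted p = 0.93, 0.79 and 0.25). The log2 ratio of Psmb10 to Psmb7 counts was 1.28, 1.25 and 1.59 in shControl and 0.25, 0.78, 1.28 and 0.36 in shBrca2. shBrca2 replicate 3 reached the controls and the other three were under them. The mean ratio differed by -0.71 on the log2 scale (two-sided exact permutation test, p = 0.086). For Psmb9 to Psmb6 the difference was -0.80, from -2.23 ± 0.49 (SD, n = 3) to -3.02 ± 0.63 (SD, n = 4) (two-sided exact permutation test, p = 0.17). For Psmb8 to Psmb5 it was -0.17, from 1.77 ± 0.28 to 1.60 ± 0.39 (two-sided exact permutation test, p = 0.66). Adjusted over the 3 ratios, the exact permutation p were 0.26, 0.26 and 0.66. The smallest p this design allows is 0.029, from 35 divisions of the libraries.

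**Figure D3:**
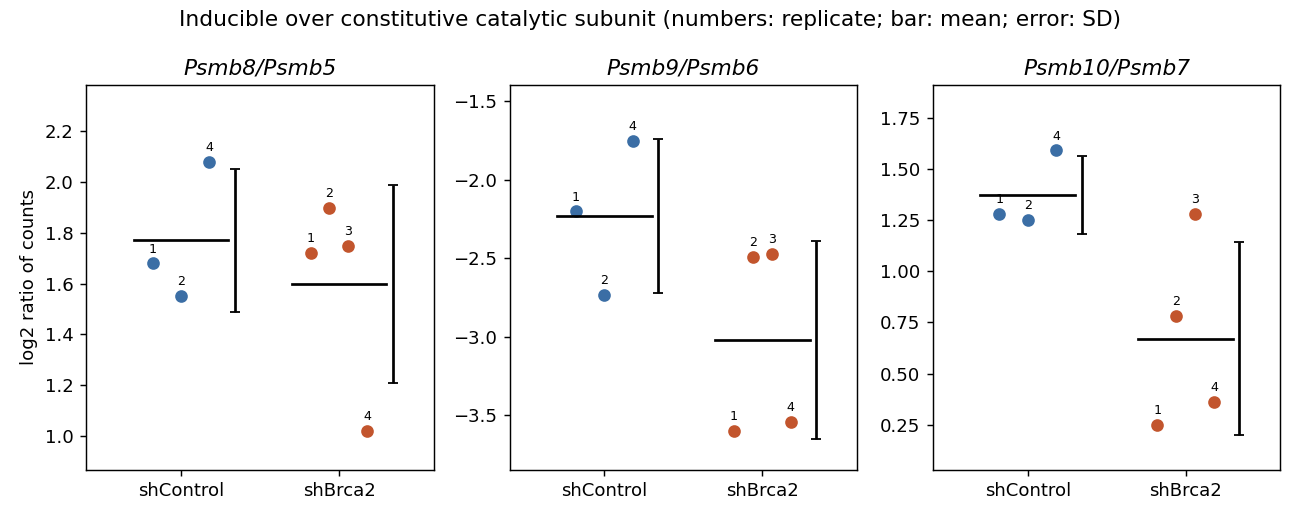
Log2 ratio of inducible to constitutive catalytic subunit counts per library (y axis; the axes do not start at 0 and differ between panels), by group; numbers mark replicates, horizontal bars the mean and error bars the SD. The groups overlap in each panel, and shBrca2 replicates 1 and 4 are the lowest for Psmb9/Psmb6 and Psmb10/Psmb7.

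The spread within the groups was large and was shared by the members. In all 10 genes shBrca2 replicates 1 and 4 were the 2 lowest libraries. Both lay under replicates 2 and 3 for 10 of 10 members, an order seen in 18.3% of all genes. On the log2 scale, after each gene's mean was taken off, the members averaged 0.26, 0.20 and 0.68 in the shControl libraries and -0.60, 0.20, 0.05 and -0.76 in the shBrca2 libraries. shBrca2 replicates 2 and 3 were thus close to shControl replicates 1 and 2. Total counts did not separate the pairs, since shBrca2 replicates 1 and 4 (3683915 and 3130893) fell between replicate 2 (5990579) and replicate 3 (1898679). Over all genes, shBrca2 replicates 1 and 4 were the most alike of all library pairs. Their counts differed by a mean chi-square per gene of 3.01, against 6.6 to 31.1 for the other pairs. This measure also depends on depth. Over the 45 pairs of members the correlation across the 7 libraries ran from 0.67 to 0.99, with a median of 0.90.

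The calls rested on single libraries. Without shControl replicate 4, shBrca2 replicate 1 or shBrca2 replicate 4, the number of members called was 0. With shControl replicate 4 left out, log2 fold changes of H2-K1, H2-D1, B2m and Tap2 were -0.46, -0.53, -0.77 and -0.55 (DESeq2 adjusted p = 0.5, 0.43, 0.21 and 0.29). Without shBrca2 replicate 1 they were -0.69, -0.66, -0.87 and -0.58 (DESeq2 adjusted p = 0.25, 0.27, 0.15 and 0.26), and without shBrca2 replicate 4 -0.65, -0.64, -0.81 and -0.55 (0.25, 0.25, 0.14 and 0.24). In the other direction, 7 members were called without shBrca2 replicate 2, with Tapbp (-0.64), Psmb9 (-0.84) and Nlrc5 (-1.34) added. B2m also lost its call without shControl replicate 1 (0.14) and H2-K1 without shBrca2 replicate 3 (0.1). No member changed sign in any of the 13 alternative fits.

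**Figure D4:**
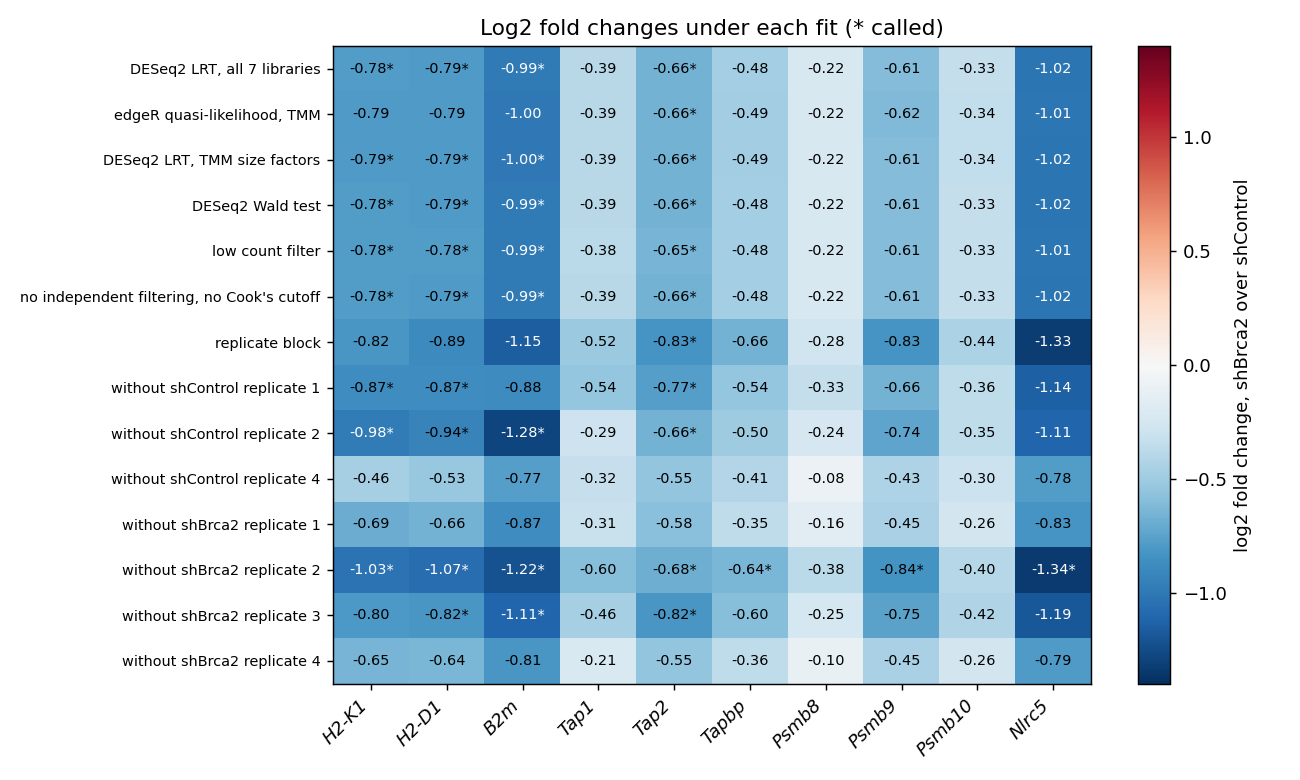
Log2 fold changes of shBrca2 over shControl for the 10 genes (columns) under the reported DESeq2 fit and 13 alternative fits (rows); the color scale gives the value and an asterisk marks a call. All cells are negative, and the rows without shControl replicate 4, shBrca2 replicate 1 or shBrca2 replicate 4 hold no asterisk.

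The rest of the pathway was described with 8 lists written by hand, of which 114 entries were in the table. Of these 114, 14 were called, 13 lower and 1 higher, beside 9.04% of all genes called, 5.27% lower and 3.77% higher. Among 39 interferon target genes, 7 were called lower and 0 higher, 34 had a negative sign, and the median log2 fold change was -0.54. Ifit3 and Oas2, both antiviral effectors, fell by 1.14 and 0.93 on the log2 scale (DESeq2 adjusted p = 0.015 and 0.016). Ifit3 had 169, 159 and 325 normalized counts in shControl and 79.2, 142, 114 and 59 in shBrca2, and the groups did not overlap. Bst2 (tetherin), Cxcl10 (a T-cell chemoattractant), Isg15 (a ubiquitin-like modifier) and Ifi35 fell by 0.87, 0.84, 0.74 and 0.59 (DESeq2 adjusted p = 0.037, 0.093, 0.062 and 0.019), and Samhd1, the last of the 7 and outside the naming limit, by 0.52 (0.095). Ifit3 and Oas2 lost their calls only without shControl replicate 4. Cxcl10, Isg15 and Ifi35 lost theirs without shControl replicate 4, shBrca2 replicate 1 or shBrca2 replicate 4, and Bst2 without either of the last 2. Cxcl10 also lost its call without shControl replicate 1, and Isg15 without shControl replicate 2. Samhd1 kept its call in 1 of the 7 fits without a library, the one without shControl replicate 2. edgeR called 5 of the 7 targets, and not Cxcl10 or Isg15.

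In the interferon receptor signaling list 3 of 14 genes were called lower and 0 higher, with a median of -0.40. Socs1, a feedback inhibitor of interferon signaling, had 429, 362 and 525 normalized counts in shControl and 122, 237, 223 and 165 in shBrca2. The groups were well apart. It fell by 1.24 on the log2 scale (SE 0.25, DESeq2 adjusted p = 6.9e-05) and was the 1 gene of the 14 called in the 8 lists that passed in every fit that left out a library. Ifngr1, a chain of the interferon-γ receptor, fell by 0.62 (DESeq2 adjusted p = 0.05) and Socs3, a feedback inhibitor of cytokine signaling, by 0.60 (0.082). Ifngr1 kept its call in 1 and Socs3 in 2 of the 7 fits without a library, and shControl replicate 4 and shBrca2 replicates 1 and 4 were among those each needed. edgeR did not call Socs3. None of the 16 class I transcription factors was called (median -0.09). Irf1, which drives class I and the inducible subunits, had 659, 447 and 732 normalized counts in shControl and 267, 512, 686 and 443 in shBrca2, and lay at a fold change of -0.37 on the log2 scale (DESeq2 adjusted p = 0.58). For Rela, an NF-κB subunit, the value was 0.20 (0.52). edgeR called 1 gene of this list, Irf8, which DESeq2 did not (-1.01, adjusted p = 0.1), at 8.61 to 32.5 normalized counts.

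Of 13 other class I and class I-like chains, 2 were called lower and 0 higher, with a median of -0.24. Fcgrt, the heavy chain of the neonatal Fc receptor, which also pairs with β2-microglobulin, had 1308, 1003 and 1397 normalized counts in shControl and 731, 947, 867 and 768 in shBrca2. The groups did not overlap, and the level fell by 0.58 on the log2 scale (SE 0.18, DESeq2 adjusted p = 0.02). H2-Q4 fell by 1.23 (DESeq2 adjusted p = 0.092) at 12 to 68.1 normalized counts, a level at which reads shared with related chains could matter. Both lost their calls without shControl replicate 1 or 4 or shBrca2 replicate 1 or 4, and H2-Q4 also without shBrca2 replicate 2 and with edgeR. Among 10 peptide loading and trimming genes, 1 was called lower and 0 higher (median -0.28). This was Tapbpl, a second peptide editor related to tapasin, which fell by 0.80 on the log2 scale (DESeq2 adjusted p = 0.077). It kept its call in 2 of the 7 fits without a library, and not without shControl replicates 1 or 4 or shBrca2 replicates 1, 2 or 4.

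The 7 proteasome activator and constitutive subunit genes held 0 calls, with a median of 0.12 (Psme1, a subunit of the PA28 activator, -0.06). The 9 negative regulators of surface class I also held 0 calls (median -0.20), with Susd6 at 0.06 and Tmem127 at -0.30. The 6 MHC class II genes had a median of 0.30. Of these H2-DMb1, a subunit of the class II peptide editor, was called higher, with 94, 142 and 181 normalized counts in shControl and 183, 276, 209 and 208 in shBrca2, a rise of 0.67 on the log2 scale (DESeq2 adjusted p = 0.099). This call was lost with TMM factors, with edgeR, and in 6 of the 7 fits without a library, all but the one without shControl replicate 4. Without that library 5 of the 6 class II genes were called (Cd74, H2-Aa, H2-Ab1, H2-Eb1 and H2-DMb1). It held the most class II RNA of the controls: Cd74, the invariant chain, had 278, 779 and 1686 normalized counts in shControl and 939, 1890, 1416 and 873 in shBrca2. The same library was the highest for 9 of the 10 class I members, and the part of antigen-presenting cells in that was not tested.

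**Figure D5:**
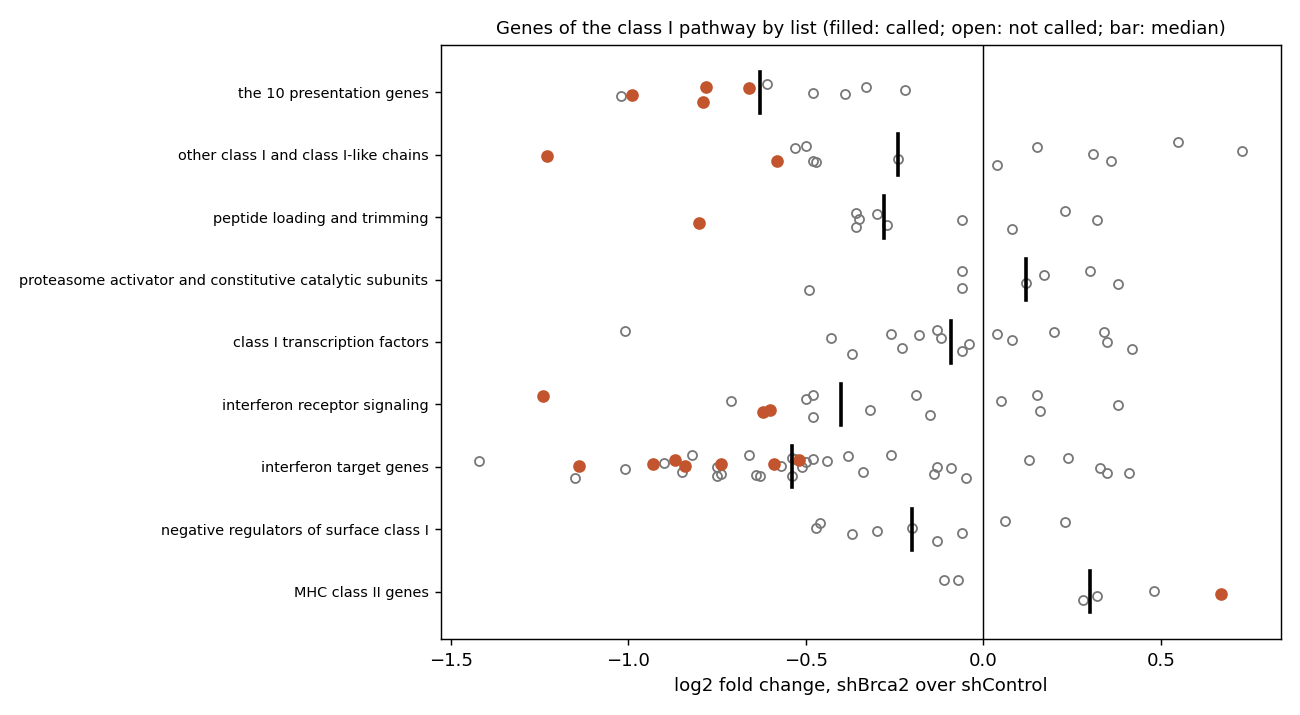
Log2 fold change of shBrca2 over shControl (x axis) for each gene of the 10 presentation genes and of 8 lists of related genes; filled points are called genes, open points are not, and bars mark the median of the list. The presentation genes and the interferon targets have medians of -0.63 and -0.54, and the class II genes one of 0.30.

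Lastly, genes with the same profile across the 7 libraries were sought among 6726 genes with a mean normalized count over 50. The nearest to the members' average were Fndc1, Ppp1r10 and Irf7 (Pearson r = 0.99 each), Sp100 (0.98) and Tcn2 (0.97). After group means were taken off, r over both groups together was 0.99, 0.98, 0.99, 0.97 and 0.95 in the same order. These genes were picked for their r over the same libraries, so this is not a separate check. Irf7, a transcription factor of the interferon response, had 762, 894 and 1341 normalized counts in shControl and 392, 893, 782 and 332 in shBrca2. Sp100 encodes a nuclear body protein, Ppp1r10 a regulatory subunit of protein phosphatase 1, and Tcn2 transcobalamin. Median r was 0.89 over the 23 interferon targets above that count, 0.26 over the 6 class II genes, 0.23 over 10 fibroblast markers and 0.01 over all genes searched. After group means were taken off it was 0.85, 0.75, 0.16 and 0.01, so the class II genes were nearer to the members after that step than before it. These correlations are descriptions over 7 libraries that share their size factors.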

How the data were processed

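RNA was read at transcript 3' ends (a variant of MARS-seq) in CAFs of 7 mice. The authors deposited raw counts per gene symbol, 1 column per library. The submitters' processing notes name STAR 2.4.2a, HTSeq and the build mm10. Use of molecular barcodes and strand was not given in the sources used here, so counts may include PCR copies. The 3' counts were not scaled to length, so they do not rank genes by level. Groups came from sample titles.

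DESeq2 1.42.0 (R 4.3.3) was run on all 12771 genes with its likelihood ratio test of group, the study's thresholds and Benjamini-Hochberg adjustment. 3 genes received no p. Fold changes were not shrunken. Alternatives were edgeR 4.0.16 (quasi-likelihood), TMM factors, the Wald test, a filter (10 counts in 3 libraries), no independent filtering, a replicate block and leaving out each library. Subunit ratios used counts plus 1. Code was tested on simulated data.

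The 10 genes, the lists and the motifs were chosen with earlier results of these data known. Named genes were the members, called genes of each pathway list (up to 6 by fold change, otherwise the 2 with the highest mean count), the 5 nearest profiles and the 2 markers with the highest mean count of each cell type. Positions and promoters are from RefSeq (GRCm38.p6, the assembly of mm10).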

Additional observations from a re-analysis of the deposited data

Results flagged for a closer look

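Among 53 sets of 4 shBrca2 values tested (members, named genes and ratios), 1 held a library far from the other 3. Mzb1, a plasma cell gene, was at 5.83 normalized counts in shBrca2 replicate 2 and at 0 to 0.861 in the others. Chance alone marks about 5% of such sets. No member was marked.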

How the results depend on the processing

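All 10 members kept a negative sign in the 13 alternative fits, and their median log2 fold change ran from -0.77 to -0.44 when 1 library was left out. The number of members called, 4 in the reported fit, was 1 with edgeR, 1 with the replicate block, and 0 to 7 when 1 library was left out (0 without shControl replicate 4, shBrca2 replicate 1 or shBrca2 replicate 4, and 7 without shBrca2 replicate 2). It remained at 4 with TMM factors, the Wald test, the low count filter or no independent filtering. The cause of these differences was not tested. Over all genes, 1154 calls became 491 with the replicate block and 615 to 1305 without 1 library (615, 630 and 662 without shBrca2 replicate 1, shControl replicate 1 and shBrca2 replicate 4). Calls in the 8 lists, 14 in the reported fit, ran from 3 to 17. They numbered 3 when shBrca2 replicate 1 or replicate 4 was dropped, 6 when shControl replicate 1 was, and 7 when shControl replicate 4 was. The log2 difference of Psmb8/Psmb5 ran from -0.28 to 0.02, with the reversed sign at 0.02 without shBrca2 replicate 4. That of Psmb9/Psmb6 ran from -1.05 to -0.56, and that of Psmb10/Psmb7 from -0.91 to -0.57. Same-numbered libraries did not deviate together (r = -0.13, -0.171 and -0.183 for numbers 1, 2 and 4 over 6735 genes), so the replicate block shares only a number. In the DESeq2 block fit shBrca2 replicate 3 had no same-numbered control, so it added nothing to the estimated group difference. For the ratios the block used only the same-numbered pairs 1, 2 and 4, so shBrca2 replicate 3 was left out. The differences were then -0.22, -0.98 and -0.91 (two-sided exact sign-flip test over 3 pairs, p = 1, 0.5 and 0.25). The last p is the smallest that 3 pairs allow, so this test cannot separate the groups and no conclusion is drawn from it. Depth limits Nlrc5 most, at 8 to 45 reads.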

Other observations

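The spacing of 25 bases between TGACG and ATTGG was also present in the promoter of H2-M3, a class I-like chain outside the set that presents formylated peptides. It had 137, 99.9 and 142 normalized counts in shControl and 83.5, 118, 76 and 82.3 in shBrca2, with overlap (log2 fold change -0.47, SE 0.24, DESeq2 adjusted p = 0.28). Of the genes in the count table with a promoter window, 20 of 10086 (0.198%) held the spacing in the first window listed. These genes were named after the matches and values were seen.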
